A study of Homo sapiens with 4 samples.

Results

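Laminins, collagens and integrins are the families of proteins that build the extracellular matrix and hold cells to it. The genes described here are the protein-coding genes of the GENCODE v44 annotation whose symbols name a laminin alpha, beta or gamma chain, a collagen alpha chain, or an integrin alpha or beta chain. The rule took 86 of the 63677 genes in the table of counts: 12 laminin, 44 collagen, 18 integrin alpha and 8 integrin beta genes, and 4 genes that share the letters but encode no chain (ITGB1BP1, ITGB1BP2, ITGB3BP and ITGBL1). Of these 86, 55 had enough counts to be tested, 11 laminin, 22 collagen, 13 integrin alpha and 5 integrin beta genes and the 4 others. The remaining 31 held between 0 and 21 counts over all libraries, with a median of 7, and 2 of them held none.

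The libraries came from HCT116, a human colorectal carcinoma line, in which the plasmid pcDNA3.1-ORC1-3xFLAG had been expressed by transient transfection for 48 h. ORC1 belongs to the complex that marks replication origins on DNA. All 4 libraries carried this plasmid: 2 ORC1-FLAG IP libraries held RNA recovered from native nuclear lysates with the anti-FLAG antibody M2, and 2 Input libraries held RNA of the lysates themselves, with 1 Input for each IP replicate. Libraries were made from ribosomal-RNA-depleted total RNA, and IP was set against Input to ask which RNAs of the nucleus came down with the tagged protein. No library of a control antibody or of cells without the plasmid was analysed here, so RNA held by the beads or the antibody cannot be told apart from RNA held by ORC1-FLAG.

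Laminins are heterotrimers of an alpha, a beta and a gamma chain that polymerise into the basement membrane under epithelia. Collagen chains wind into helices in which every 3 residues hold 1 glycine, and are hydroxylated and trimerised in the endoplasmic reticulum before secretion. Integrins are transmembrane heterodimers of an alpha and a beta chain that bind these ligands outside the cell and the actin or keratin cytoskeleton inside it. All these chains enter the endoplasmic reticulum while they are made, so that their mRNAs are translated on its membrane, which is continuous with the outer membrane of the nucleus.

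Totals were 27483148 and 20280445 counts for IP replicates 1 and 2, against 14677002 and 9213877 counts for the Inputs. Levels are given as CPM, read counts scaled to a common library size by TMM, fold changes as log2 of IP over Input from edgeR's quasi-likelihood test, with their standard error (SE) and a Benjamini-Hochberg adjusted p over 14645 genes. A gene was called enriched or depleted when its adjusted p was below 0.05 and its log2 fold change was above 1 or below -1. The labels give the Input and the IP of a RIP experiment the same replicate number, and the value of a fit with the replicate as a block is given where it changes a call. The transfected gene ORC1 had 1108 and 18551 CPM in the IP libraries and 333 and 5063 CPM in the Inputs, and a log2 fold change of 1.87 ± 1.42 (SE over 2 libraries per group, with an adjusted p of 0.374 in edgeR; 1.80 with an adjusted p of 3.16e-06 with the block). Of 7 epithelial markers, 6 had at least 1 CPM in every library and the summed level was 2324 to 4519 CPM, whereas the sums were 1.03 to 2.48 CPM for 7 fibroblast markers (3 at 0), 0.745 to 3.24 CPM for 4 endothelial markers (1 at 0) and 0.115 to 0.626 CPM for 4 leukocyte markers (2 at 0). In RNA of a whole culture, fewer cells with a transcript and less transcript per cell cannot be told apart.

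Of the 55 genes tested, 11 were enriched in the ORC1-FLAG IP, or 20%, beside 10.5% of all genes tested, and 1 was depleted, beside 8.3%. The enriched genes were 5 laminin chains (LAMA1, LAMA3, LAMA5, LAMB1 and LAMC1) and 6 collagen chains (COL1A1, COL5A2, COL7A1, COL11A2, COL12A1 and COL27A1), and the depleted gene was the integrin alpha chain ITGAE. The median log2 fold change was 1.42 for laminins, 0.90 for collagens, 0.36 for integrin alpha and 0.35 for integrin beta chains, against 0.01 for all genes and 0.08 for protein-coding genes. With the block, 20 were enriched and 2 depleted, beside 13.4% of all genes in each direction. Both IP libraries lay above both Inputs for 31 of the 55 genes, beside 33.2% of all genes tested. They did so for every one of the 1542 enriched genes of the whole table, so a lack of overlap adds nothing to a call. Both log2 replicate ratios of IP to Input lay above 0 for 43 of the 55, beside 42.9%. A further 9 genes had a log2 fold change above 1 without being called. On the scale of library size alone the log2 fold changes of all genes moved by a median of -0.60, and 0 of the 55 were then called enriched in edgeR, beside 2.59% of all genes, with 5 at an unadjusted p below 0.05 and higher in IP. DESeq2 fitted 31990 genes, 84 of them of the families described here, and called 13 of the 84 enriched, beside 5.23% of all it fitted. Among the genes tested in edgeR, it called 13 of the 55 and 1674 of the 14645. The median log2 fold change of the tested genes was 0.77 with all 4 libraries, 0.52 without Input replicate 1 and 1.02 without Input replicate 2. LAMA3, LAMA5, LAMC1, COL1A1 and COL27A1 were enriched in all 4 fits that leave out 1 library, whereas COL7A1 was lost in each of them, LAMA1 without either IP or without Input replicate 1, COL11A2 without either IP, COL5A2 without either replicate 2 library, and COL12A1 and LAMB1 without Input replicate 1.

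**Figure D1:**
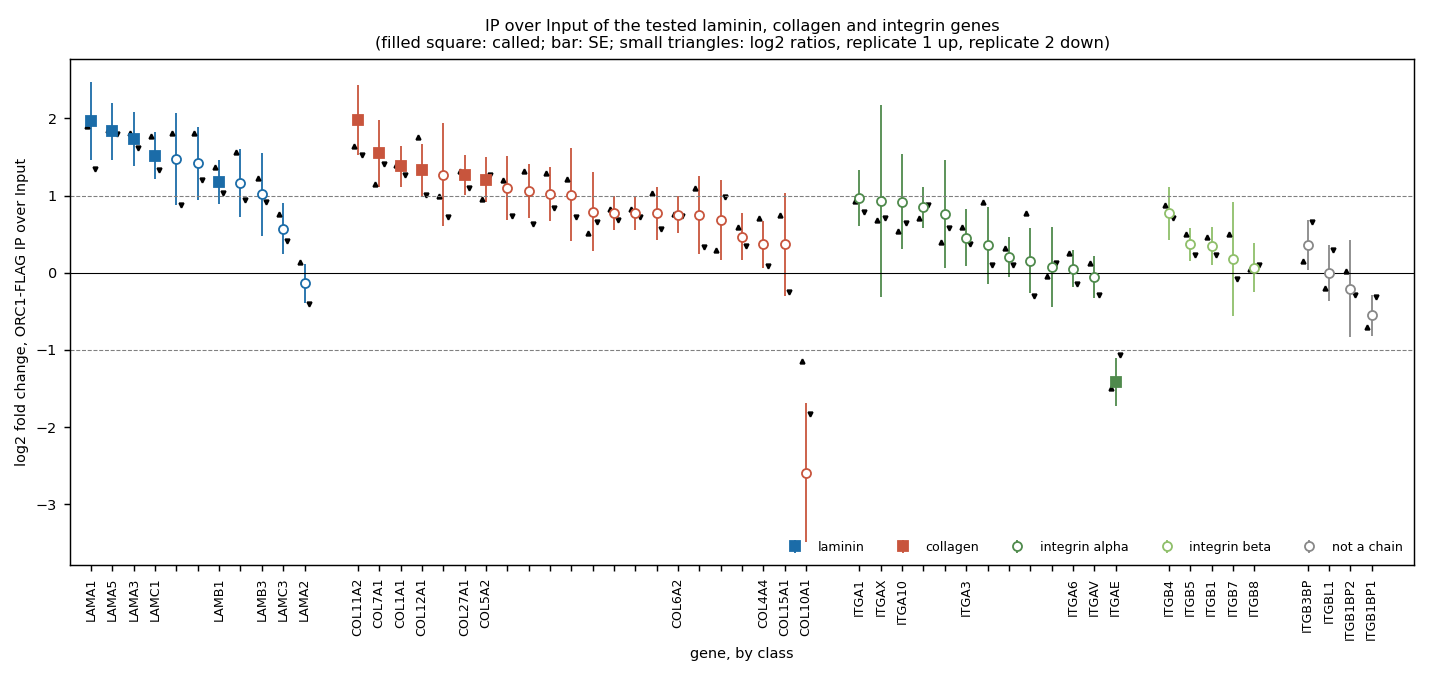
Log2 fold change of ORC1-FLAG IP over Input for the 55 tested genes, in 5 classes and ordered by value within each, with the called genes and those at the ends or with the highest Inputs of each class labelled (bars are SE, n = 2 libraries per group; small triangles are the log2 ratios of the 2 replicates with a pseudocount of 0.5 CPM, which draws low genes towards 0). Of the 11 laminins, 9 lie above the highest integrin at 0.97, and LAMA2 lies at -0.14.

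Among the laminins, all 3 subunit kinds were represented in the IP. The alpha chain genes LAMA1, LAMA3 and LAMA5 were enriched, while LAMA4 and LAMA2 were not called. LAMA5 encodes the alpha chain of the laminins found in most epithelial basement membranes (chromosome 20, 62307955 to 62367312, minus strand, GRCh38). It had 147 and 245 CPM in IP replicates 1 and 2 and 40.5 and 70.0 CPM in the Inputs, so that both IP libraries lay above both Inputs. Its log2 fold change was 1.83 ± 0.37 (3.56-fold, edgeR adjusted p = 0.0189), with replicate ratios of 1.85 and 1.80 on the log2 scale.

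LAMA3 encodes the alpha chain of the laminin that anchors hemidesmosomes (chromosome 18, 23689453 to 23956222, plus strand). It stood at 44.8 and 68.4 CPM in IP against 12.4 and 21.9 CPM in the Inputs, again without overlap, and its log2 fold change was 1.73 ± 0.35 (edgeR adjusted p = 0.0190). LAMA1, the alpha chain of embryonic basement membranes (chromosome 18, 6941742 to 7117797, minus strand), had 4.13 and 4.66 CPM in IP against 0.745 and 1.54 CPM in the Inputs. Its log2 fold change of 1.97 ± 0.50 (edgeR adjusted p = 0.0336) was the highest of the laminins and rested on 13 and 18 Input counts. Exons of genes on the opposite strand cover 11.1% of the exonic bases of LAMA1, and the strand setting of the counting is not stated.

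LAMA2, the alpha chain of muscle and nerve basement membranes, had the lowest value of the laminins. It had 14 and 11.9 CPM in IP against 12.7 and 15.9 CPM in the Inputs, values that overlap, and a log2 fold change of -0.14 ± 0.25 (edgeR adjusted p = 0.723). Its coding sequence of 9366 bases is as long as those of LAMA1 and LAMA3, with 9225 and 9999 bases. LAMA4 had 4.08 and 5.29 CPM in IP against 0.802 and 2.65 CPM in the Inputs, a log2 fold change of 1.47 ± 0.59 that was not called (edgeR adjusted p = 0.113; 0.00120 with the block).

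The beta and gamma chains all had log2 fold changes above 0. LAMC1, the gamma chain that most laminins share (chromosome 1, 183023420 to 183145592, plus strand), had IP levels of 550.4 and 628 CPM against 161 and 250.4 CPM in the Inputs, and a log2 fold change of 1.52 ± 0.30 (2.86-fold, edgeR adjusted p = 0.0181). LAMB1, its usual beta partner (chromosome 7, 107923799 to 108003213, minus strand), had 161 and 195 CPM in IP against 62.0 and 95.3 CPM in the Inputs, and a log2 fold change of 1.18 ± 0.29 (edgeR adjusted p = 0.0300). Neither gene overlapped between groups. LAMB3 joins LAMA3 in the laminin of hemidesmosomes and was not called in the unblocked fit. It had 164 and 357 CPM in IP against 69.3 and 188 CPM in the Inputs, so that IP replicate 1 lay below Input replicate 2. Its log2 fold change was 1.02 ± 0.54 (edgeR adjusted p = 0.210; 6.90e-05 with the block). LAMB2, LAMA4 and the other genes that the block called and the unblocked fit did not are named here after their values were seen. LAMB2 had a log2 fold change of 1.42 ± 0.47 (edgeR adjusted p = 0.0709, and 6.33e-06 with the block). DESeq2 also called LAMB2 enriched, and a fit with no count filter called both LAMB2 and LAMA4. LAMC3, a gamma chain, had a log2 fold change of 0.57 ± 0.33 and was not called in either fit. With the block, 9 of the 11 laminins were enriched.

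Of the 22 collagens tested, 6 were enriched and 21 had a log2 fold change above 0. The fibrillar collagens, which form the banded fibres of connective tissue, held 4 of the 6: of 5 fibrillar chains tested, COL1A1, COL5A2, COL11A2 and COL27A1 were enriched and COL5A3 was not, at 0.79 ± 0.52 (edgeR adjusted p = 0.301). COL1A1, a chain of type I collagen (chromosome 17, 50184101 to 50201632, minus strand), had 21.6 and 26.7 CPM in IP against 7.90 and 10.8 CPM in the Inputs. Its log2 fold change was 1.38 ± 0.27 (2.60-fold, edgeR adjusted p = 0.0170). Its partner in type I collagen, COL1A2, was not tested, with 0 and 2 counts in IP and 0 in either Input.

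COL11A2, a chain of the cartilage fibre collagen (chromosome 6, 33162681 to 33192499, minus strand), had the highest log2 fold change of all 55 genes, 1.98 ± 0.45 (edgeR adjusted p = 0.0244). It had 3.94 and 4.38 CPM in IP against 0.916 and 1.20 CPM in the Inputs, which rested on 16 and 14 counts. COL27A1 (chromosome 9, 114155537 to 114312511, plus strand) had IP levels of 15.4 and 16.9 CPM against 5.84 and 7.62 CPM in the Inputs, and a log2 fold change of 1.27 ± 0.26 (edgeR adjusted p = 0.0190). COL5A2, which helps to set the width of type I fibres (chromosome 2, 189031898 to 189225312, minus strand), had 8.55 and 11 CPM in IP against 4.18 and 4.28 CPM in the Inputs, and a log2 fold change of 1.20 ± 0.29 (edgeR adjusted p = 0.0284). None of these 4 genes overlapped between groups, which was so for all 1542 enriched genes of the table.

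The helix of the fibrillar chains is visible in their coding sequences as a glycine codon (GGN) in every 3 codons. This repeat ran unbroken over 338 triplets in COL1A1 and COL11A2, 339 in COL5A2, 337 in COL5A3 and 217 in COL27A1, while no other tested collagen passed 113 and no laminin or integrin passed 4. A stretch of 27 coding bases from the middle of the repeat is shown for 3 of the enriched fibrillar chains, with the glycine codons in capitals. They lie at chr17:50191824-50191850 (exon 31 of 51), chr6:33172307-33172333 (exon 40 of 66) and chr9:114266592-114266618 (exon 33 of 61) of GRCh38.
COL1A1: GGTccccctGGTcctgctGGTccccga
COL11A2: GGTctgaggGGAttcccaGGAgagaga
COL27A1: GGGcctccaGGAgagatgGGAcccaag
Glycine codons made up a median of 24.6% of the codons of the tested collagens and 8.21% in laminins. The median was 6.37% in all tested protein-coding genes and 5.31% in the enriched ones. Across the 22 collagens, log2 fold change and glycine codon share had a Spearman rho of -0.30, a description over genes that share their 4 libraries.

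COL12A1 and COL7A1 completed the enriched collagens. COL12A1 binds to the surface of collagen fibres (chromosome 6, 75084326 to 75206267, minus strand) and had 850.0 and 884 CPM in IP against 251 and 438 CPM in the Inputs. Per kilobase of exonic length, COL12A1 and COL6A2 had the highest mean Input levels of the collagens, 18.3 and 18.2 CPM. The log2 fold change of COL12A1 was 1.33 ± 0.33 (2.52-fold, edgeR adjusted p = 0.0314), with a larger log2 ratio in replicate 1 (1.76) than in replicate 2 (1.01). COL7A1, the anchoring fibril that ties the epithelial basement membrane to the dermis or stroma (chromosome 3, 48564073 to 48595329, minus strand), had 3.65 and 5.12 CPM in IP against 1.37 and 1.63 CPM in the Inputs. Its log2 fold change was 1.55 ± 0.43 (edgeR adjusted p = 0.0429) and rested on 24 and 19 Input counts, and DESeq2 did not call it.

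No type IV collagen, the collagen of the basement membrane itself, was called enriched in the unblocked fit with all 4 libraries. Of the type IV chains, COL4A1 and COL4A2 had at most 8 counts in a library and were not tested, and the 4 that were tested had log2 fold changes between 0.37 (COL4A4) and 1.01 (COL4A6) with 0 called in edgeR, 0 at an unadjusted p below 0.05 and 0 in DESeq2. The block called COL4A6 (1.08, edgeR adjusted p = 0.00318). The 3 tested chains of the beaded-filament collagen, COL6A1, COL6A2 and COL6A3, had log2 fold changes of 0.77, 0.75 and 1.27, of which COL6A1 passed the adjusted p (0.0482 in edgeR) but not the fold limit, as did COL9A3 (0.77, adjusted p = 0.0434). COL6A2 had 151 and 176 CPM in IP against 88.8 and 105 CPM in the Inputs. COL18A1, whose fragment endostatin inhibits vessel growth, had a log2 fold change of 1.02 ± 0.35 (edgeR adjusted p = 0.0759). The block called COL18A1 enriched (edgeR adjusted p = 6.92e-05), as did DESeq2 and a fit with no count filter. Exons of SLC19A1 on the opposite strand cover 18.5% of its exonic bases. The block also called COL6A3, COL16A1 and COL17A1. COL10A1, the network collagen of growth-plate cartilage, lay apart from every other collagen, with 3 and 9 counts in IP and 16 and 36 in Input and a log2 fold change of -2.59 ± 0.90 (edgeR adjusted p = 0.0796; 0.000315 with the block, where it counted as depleted).

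**Figure D2:**
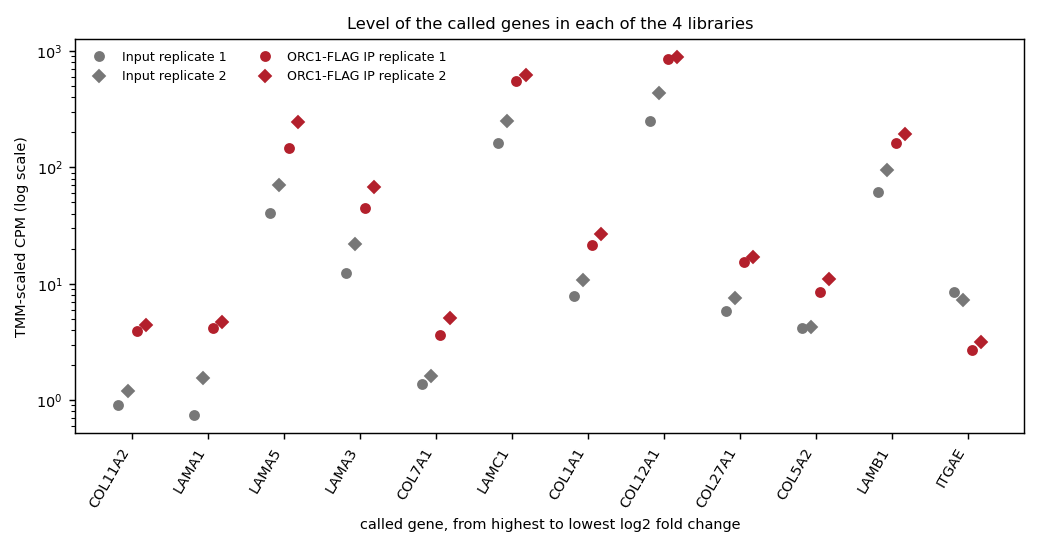
TMM-scaled CPM on a log axis of the 12 called genes in each Input (grey) and ORC1-FLAG IP (red) library, with circles for replicate 1 and diamonds for replicate 2. For the 11 enriched genes both red points lie above both grey points, as in all 1542 enriched genes of the table, and for ITGAE both lie below. Levels of the enriched genes run from 0.745 CPM (LAMA1, Input) to 884 CPM (COL12A1, IP).

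No integrin mRNA was called enriched with all 4 libraries. Of the 18 integrin chains tested, 0 passed in the direction of the IP in edgeR, with 2 at an unadjusted p below 0.05 (ITGA1 and ITGA7) and 0 called by DESeq2 or with the block. With Input replicate 2 left out, edgeR called 3 integrin chains enriched, ITGA2, ITGB4 (1.05, adjusted p = 0.0378) and ITGAX (3.77, adjusted p = 0.00197). The epithelial integrins were among the genes with the highest levels. Per kilobase of exonic length, mean Input levels were 40.5 CPM for ITGA3, 37.2 for ITGB4, 30.5 for ITGA6 and 24.2 for ITGB1, beside 24.4 for LAMC1 and 18.3 for COL12A1.

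ITGB1, the beta chain that pairs with most alpha chains, had 485 and 415 CPM in IP against 352 and 354 CPM in the Inputs. Both IP libraries lay above both Inputs, but the log2 fold change of 0.35 ± 0.25 was not called (edgeR adjusted p = 0.338). ITGA3, an alpha chain of a laminin receptor, had 428 and 659 CPM in IP against 283 and 510.2 CPM in the Inputs, which overlap, and a log2 fold change of 0.45 ± 0.37 (edgeR adjusted p = 0.410). ITGA6 and ITGB4 form the laminin receptor of hemidesmosomes. ITGA6 had 228 and 196 CPM in IP against 191 and 217 CPM in the Inputs and a log2 fold change of 0.06 ± 0.24 (edgeR adjusted p = 0.891), whereas ITGB4 had 345 and 514 CPM in IP against 188 and 315 CPM in the Inputs and a log2 fold change of 0.77 ± 0.35 (edgeR adjusted p = 0.149; 0.000966 with the block, below the fold limit). ITGA6 thus lay close to the median of all genes (0.01), while LAMA3, a chain of its ligand, was enriched, and the difference between the 2 genes was not tested.

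ITGAV, the alpha chain of receptors for RGD ligands such as vitronectin, had a log2 fold change of -0.05 ± 0.27, and its partners ITGB5 and ITGB8 had 0.37 ± 0.22 and 0.07 ± 0.31. The 3 highest integrin values belonged to chains with mean Input levels of 0.108 to 0.206 CPM per kilobase. ITGA1, a collagen receptor chain, had 4.80 and 5.52 CPM in IP against 2.29 and 3.00 CPM in the Inputs and a log2 fold change of 0.97 ± 0.36 (edgeR adjusted p = 0.0957), and its exons share 5.77% of their bases with genes of the same strand that include PELO. ITGA10, another collagen receptor chain, had 0.92 ± 0.61. ITGAX, a chain of leukocyte integrins, had 12 and 84 counts in IP and 3 and 32 in Input, so that the replicates differed more than the groups, and its log2 fold change was 0.93 ± 1.25 (edgeR adjusted p = 0.624). ITGB7, a leukocyte beta chain, had 0.18 ± 0.74, and exons of ZNF740 on the opposite strand cover 42.3% of its exonic bases.

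ITGAE, the alpha chain that binds E-cadherin and is best known from intraepithelial lymphocytes, was, without the block, the only gene of the 55 called depleted (chromosome 17, 3714628 to 3801188, minus strand). It had 2.69 and 3.19 CPM in IP against 8.48 and 7.19 CPM in the Inputs, without overlap, and a log2 fold change of -1.42 ± 0.31 (edgeR adjusted p = 0.0226). The leukocyte markers summed to at most 0.626 CPM in any library. HASPIN lies within the ITGAE locus on the opposite strand, and opposite-strand exons cover 7.65% of the exonic bases of ITGAE. The call was lost without IP replicate 1 and without Input replicate 1.

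The 4 genes that encode no chain were not called. ITGB3BP, a centromere protein, had a log2 fold change of 0.36 ± 0.32, ITGBL1, a secreted protein with integrin-like repeats, 0.00 ± 0.36, ITGB1BP2, a muscle chaperone that binds an integrin tail, -0.21 ± 0.63, and ITGB1BP1, an inhibitor of integrin activation, -0.55 ± 0.27. Opposite-strand exons cover 70.5% of the exonic bases of ITGBL1 and 33.2% of those of ITGB1BP1.

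The fold changes were read against the length of the coding sequence. Over the 55 genes, log2 fold change and coding length had a Spearman rho of 0.70 (Pearson r on log2 length 0.57), with 0.73 and 0.55 for the ratios of replicates 1 and 2, while Input CPM gave -0.09. The same measure over 12534 protein-coding genes was 0.59. With exonic length, which covers the exons of all annotated transcripts of a gene and includes untranslated regions, rho was 0.35 over the 55 genes. These are descriptions over genes that share their 4 libraries, and gene families share sequence as well. Of 12 genes under 2500 coding bases 0 were enriched, and of 17 between 2500 and 4000 bases 0 were enriched, beside 5.83% and 25% of all protein-coding genes of those lengths. Of 19 between 4000 and 6000 bases 6 were enriched and of 7 with 6000 bases or more 5 were, beside 41.5% and 63.0%. Median log2 fold changes in these bands were 0.26, 0.75, 1.06 and 1.55 for the genes described here, and -0.12, 0.66, 1.00 and 1.33 for all protein-coding genes.

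Set against the median of protein-coding genes in the same of 10 equal bins of coding length, the classes divided. Of the laminins, 9 of 11 lay above that median and their median distance to it was 0.40 on the log2 scale. Of the collagens 13 of 22 lay above it (median distance 0.07). Of the integrin chains 5 of 18 lay above it (median distance -0.28), including 0 of the 5 beta chains, and ITGAE lay 2.06 below. LAMA2 lay 1.21 below and COL10A1 2.87 below. The longest bin ran from 3615 to 107973 bases, so its median of 1.07 stood for genes of unlike length. Medians of protein-coding genes were 1.00 between 4000 and 6000 bases and 1.33 between 6000 and 20000 bases. LAMA1, LAMA3 and LAMA5 were set against 1.07. These distances were not tested.

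**Figure D3:**
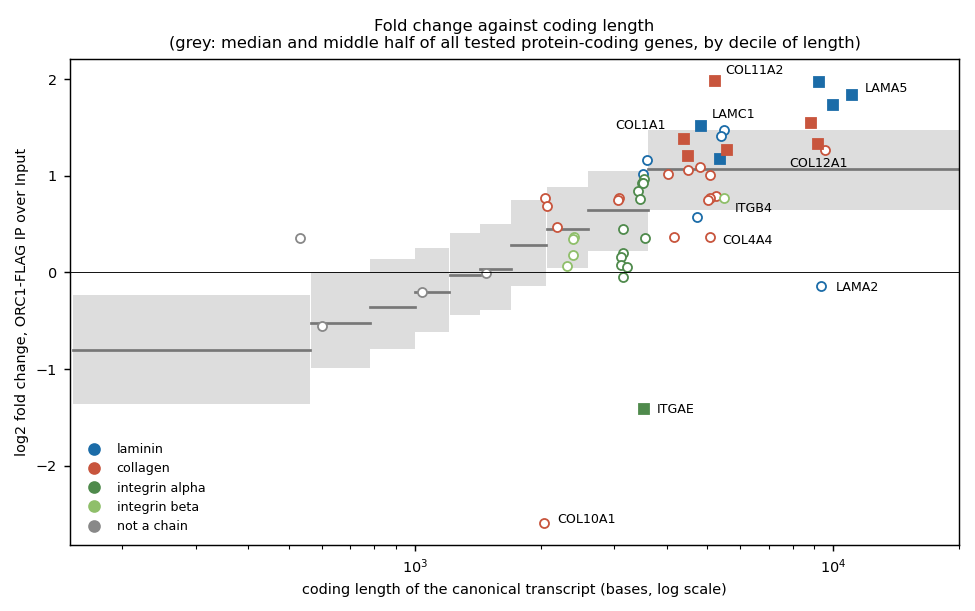
Log2 fold change of IP over Input against the coding length of the canonical transcript (log axis in bases, drawn to 20000), with filled squares for called genes and open circles for the others, coloured by class. Grey lines and boxes are the median and the middle 50% of all tested protein-coding genes in each of 10 bins of length. The medians climb from -0.80 in the shortest to 1.07 in the longest bin, and 11 of the 55 genes fall below the boxes, COL10A1, ITGAE and LAMA2 the farthest.

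The study followed RNAs with repeats of GAA, so the motif GAAGAAGAA was searched on the transcript strand. The study found its GAA motif with the motif finder MEME, so shares of this exact sequence cannot be set beside its own. The longest transcript held it in 4 of the 55 tested genes (LAMA2, COL6A3, ITGA7 and ITGA2B), or 7.27%, beside 13.6% of all genes tested and 36.9% of the enriched genes. It was in 0 of the 11 enriched laminin and collagen transcripts. Coding stretches that hold it are shown for 3 of them with the motif in capitals, since none of these 4 genes was called without the block (COL6A3 was with it). They lie at chr6:129440916-129440942, chr12:55692848-55692874 and chr17:44377698-44377724, the first on the plus and the others on the minus strand.
LAMA2: cgatggcctGAAGAAGAAttacaataa
ITGA7: ctctgctgaGAAGAAGAAaaacatcac
ITGA2B: ggcaaccccatGAAGAAGAAcgcccag
The shorter GAAGAA, which any GAAGAAGAA contains, was in the coding sequence of 9 of the 11 enriched genes and 45 of the 55, beside 70.5% of all protein-coding genes tested and 95.8% of the enriched ones. COL12A1 held it 14 times, LAMC1 4 times and LAMA5 once, while COL7A1 and COL27A1 had none. The first stretch of the coding sequence with GAAGAA is shown for 3 of them, at chr6:75192229-75192255 (minus strand), chr1:183110511-183110537 (plus strand) and chr20:62310796-62310822 (minus strand).
COL12A1: tgatgaagtaGAAGAAagtgtaccagt
LAMC1: gcgagtgtatGAAGAAcgaatttgata
LAMA5: tgcgctgggaGAAGAAccggatcctgc
Base composition was read in the same way. Median GC content of the coding sequence was 64.2% in tested collagens and 51.6% in laminins. It was 52.6% in all tested protein-coding genes and 47.8% in the enriched ones. The median share of GAA codons was 1.94% in collagens and 3.15% in laminins, against 2.68% in all tested protein-coding genes and 4.39% in the enriched ones. These differences were not tested.

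Genes that act with these proteins were read from 6 lists. Other matrix glycoproteins had 6 enriched and 0 depleted of 24 tested (10 and 0 with the block) and a median log2 fold change of 0.85. TNXB, a tenascin of connective tissue, was the highest at 2.17 ± 0.48 (edgeR adjusted p = 0.0228; 0.0670 if IP replicate 2 is left out), and NID2, which links laminin to type IV collagen, the lowest at -0.99 ± 0.69 and not called. The cytoplasmic partners of integrins had 8 enriched and 1 depleted of 30 (12 and 1 with the block), with a median of 0.83. DST, which links the hemidesmosomal integrin to keratin, was the highest at 2.56 ± 0.33 (edgeR adjusted p = 0.0105), and LIMS1, an adaptor of integrin-linked kinase, was depleted at -1.33 ± 0.38 (edgeR adjusted p = 0.0466), a call that RLE scaling lost, as did the fits that left out Input replicate 1 or IP replicate 2. The share of integrins enriched was 0 of 18 beside 8 of 30 of their partners, at median coding lengths of 3186 and 2738 bases. The longest coding sequence was 5466 bases among the integrins and 23454 among the partners. Median distances to protein-coding genes of the same length bin were -0.28 and 0.25. The difference in shares was not tested.

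Enzymes and chaperones that modify or export collagen had 2 enriched and 0 depleted of 29 (3 and 0 with the block) and a median of 0.29. MIA3, which loads collagen into export vesicles, was the highest at 1.38 ± 0.28 (edgeR adjusted p = 0.0188; 0.96 and under the fold limit if Input replicate 2 is left out), and LOX, which crosslinks collagen, the lowest at -0.86 ± 0.62 and not called. Other receptors of matrix had 2 enriched and 1 depleted of 13 (3 and 1 with the block) and a median of -0.07. BCAM, a laminin receptor of the immunoglobulin family, was enriched at 1.85 ± 0.23 (edgeR adjusted p = 0.0105) with a coding length of 1884 bases, and CD47, a thrombospondin receptor, was depleted at -1.45 ± 0.25 (edgeR adjusted p = 0.0134).

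Transcripts of large surface receptors and cadherins, which like integrins are long and enter the endoplasmic reticulum, had 4 enriched and 0 depleted of 47 (11 and 1 with the block). Their median log2 fold change was 0.69 at a median coding length of 5682 bases. The median distance to protein-coding genes of the same length bin was -0.36. PLXNB3, a semaphorin receptor, was the highest at 1.85 ± 0.64 and PCDH7, a protocadherin, the lowest at -1.09 ± 0.33, and neither was called except with the block (edgeR adjusted p = 0.000676 and 2.59e-05) and in some fits that left out 1 library. The machinery that brings secretory proteins into the endoplasmic reticulum lay on the other side, with 1 enriched and 12 depleted of 31 (2 and 12 with the block) and a median of -0.72. SRP72, of the signal recognition particle, was the highest at 1.11 ± 0.34 and was called only by DESeq2, with the block (edgeR adjusted p = 5.40e-05) and if Input replicate 1 or IP replicate 2 was left out, and SEC61G, a small subunit of the translocon with a coding length of 204 bases, the lowest at -3.46 ± 0.33 (edgeR adjusted p = 0.0105). The median coding length of that list was 858 bases.

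**Figure D4:**
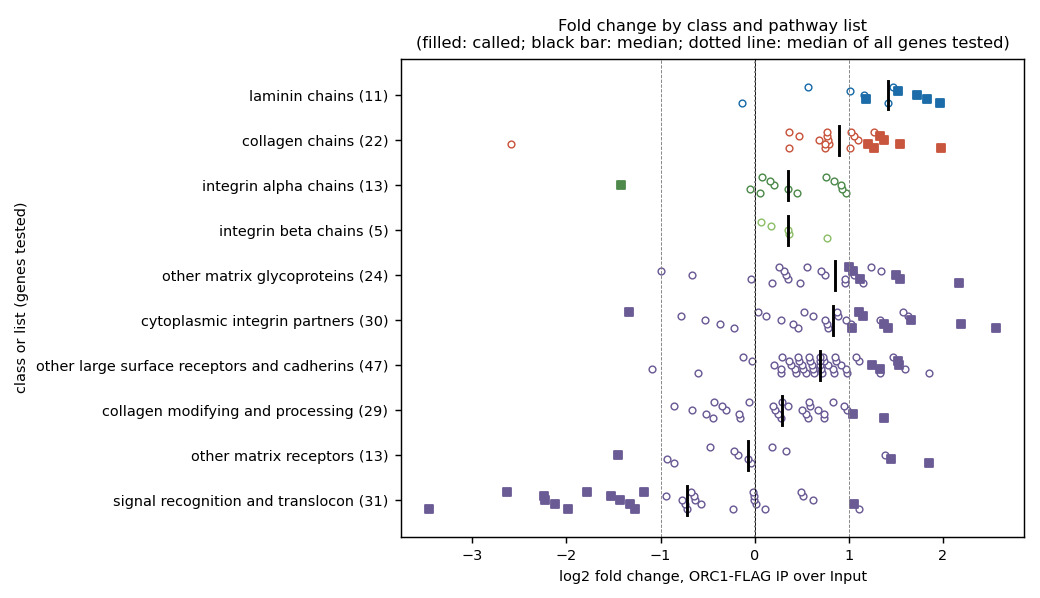
Log2 fold change of each tested gene in the 4 classes of chains and 6 lists of related genes, with filled squares for called genes, black bars for medians and a dotted line for the median of all genes tested (0.01). Medians run from 1.42 for laminins to -0.72 for signal recognition and translocon genes.

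Replicates differed in the level of these genes in both fractions. Input replicate 2 lay above Input replicate 1 for 48 of the 55 genes and for all 11 laminins, beside 50.7% of all genes tested, and IP replicate 2 above IP replicate 1 for 42 of 55 and 10 of 11, beside 46.7%. The median log2 difference between the Inputs was 0.78 for laminins and 0.60 for collagens, against 0.32 for integrin alpha chains, 0.15 for integrin beta chains and 0.01 for all genes. All 11 enriched genes were higher in replicate 2 of both fractions, whereas among all enriched genes 43.7% were higher in Input replicate 2 and 36.4% in IP replicate 2. Laminins had a median log2 ratio of IP to Input of 1.77 in replicate 1 against 1.03 in replicate 2, and collagens 1.01 against 0.72. The part of this difference between lysates in the fold changes was not tested. The larger spread between the Inputs stood beside the 9 laminins and collagens that were called with the block but not in the unblocked edgeR fit, among them LAMB3. The Inputs of LAMB3 differed by 1.43 on the log2 scale, and its log2 replicate ratios of IP to Input were 1.23 and 0.92.

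**Figure D5:**
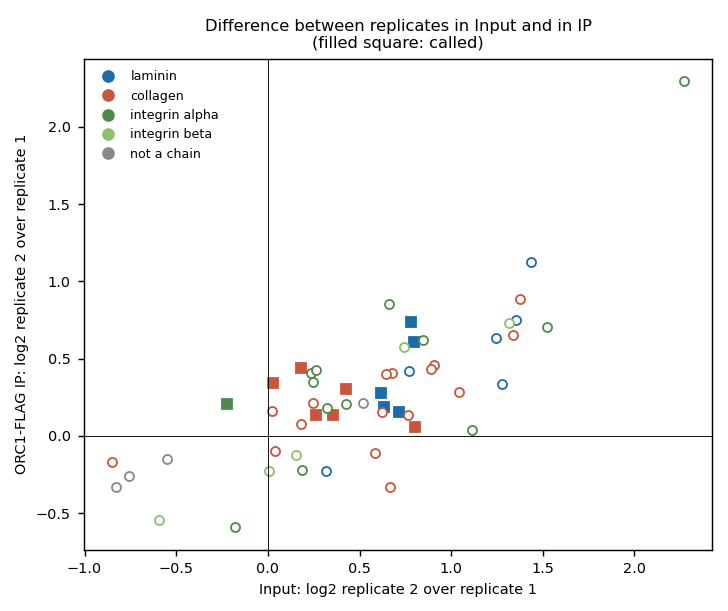
Log2 difference between replicate 2 and replicate 1 in the IP libraries against that in the Inputs for the 55 tested genes (CPM with a pseudocount of 0.5), coloured by class and with filled squares for called genes. Of the 55 genes, 48 lie right of 0 and 42 above it, including all 11 enriched genes.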

How the data were processed

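RNA from 2 ORC1-FLAG immunoprecipitates and their 2 nuclear Inputs was analysed. The authors deposited raw read counts per gene, not normalized. Per the methods and labels, they used Trimmomatic for trimming, STAR for alignment to hg19 and featureCounts for counting, and removed reads on GL contigs. The annotation release, strand setting and treatment of multiply aligned reads are not given in the sources used here. Symbols, lengths and sequences are those of GENCODE v44 (GRCh38), another build, joined by Ensembl identifier, which 52181 of 63677 genes had. All coordinates are GRCh38.

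Genes kept by filterByExpr entered edgeR's quasi-likelihood test (edgeR 4.0.16, R 4.3.3), with TMM scaling, robust dispersions and group as the only term. SE is the size of the log2 fold change over the square root of F. Replicate ratios used a pseudocount of 0.5 CPM. Coding length is that of the canonical transcript, without the stop codon and at least 150 bases. DESeq2 1.42.0 and 8 further fits were alternatives. Tests were checked on simulated counts. Labels give the IP and Input of 1 RIP experiment the same number, and deviations from group means of same-numbered libraries correlated across genes (r = 0.645), so the numbers pair the libraries. Nothing in the labels says whether replicates were separate cultures, so p-values measure the spread between these libraries only. Reads carry no molecular identifiers.

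The genes and lists were chosen with earlier results of these data known. Named were every called gene, the 3 highest and 3 lowest fold changes and 2 highest Inputs of each class, genes that encode no chain, the extremes of each list, and ORC1. Some items are not reported here.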

Additional observations from a re-analysis of the deposited data

How the results depend on the processing

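The counts of called genes moved with the scaling, the block and the library left out, and the cause was not tested. Scaling by library size alone gave 0 enriched and 2 depleted genes. The fit with no count filter, which held 84 of the 86 genes and 31990 in all, gave 15 and 2. The replicate block, which uses the pairing of IP and Input, gave 20 and 2. The 11 enriched genes were all among those 15 and those 20, and 10 of them were among the 13 of DESeq2. RLE scaling changed no call of these genes. Leaving out 1 library, with the lone library assumed to vary like the pair, gave 7 (without Input replicate 1) to 20 (without Input replicate 2) enriched and 0 (without IP replicate 1) to 2 (without Input replicate 1: COL10A1 and COL6A6) depleted genes. Over all genes, the fit without Input replicate 2 gave a median shift of -0.15 in log2 fold change.

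The median log2 fold change by library size alone was 0.17 over the tested genes, 0.82 for laminins, 0.31 for collagens, -0.24 for integrin alpha and -0.26 for integrin beta chains. With 1 library left out it ranged from 0.52 to 1.02 over the tested genes, from 0.93 to 1.77 for laminins, from 0.79 to 1.21 for collagens and from 0.050 to 0.80 for integrin alpha chains. Spearman rho with length was 0.35 on exonic length. Under the other fits, chosen after seeing the data, it ran from 0.49 to 0.72, and with 1 library left out from 0.49 to 0.70.

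Signs changed for named genes that were not called. By library size alone the log2 fold change was -0.26 for COL15A1, -0.24 for COL4A4, -0.14 for ITGA3, -0.56 for ITGA6, -0.26 for ITGB1, -0.24 for ITGB3BP, -0.24 for ITGB5, -0.42 for ITGB7, -0.54 for ITGB8 and -0.028 for LAMC3. ITGBL1 had 0.0051 in DESeq2 and 0.024 with the block. With 1 library left out, log2 fold changes ranged from -0.070 to 0.84 for COL15A1, -0.012 to 0.21 for ITGA6, -0.33 to 0.27 for ITGAV, -1.23 to 3.77 for ITGAX, -0.52 to 0.069 for ITGB1BP2, -0.15 to 0.89 for ITGB3BP, -0.46 to 1.22 for ITGB7, -0.36 to 0.46 for ITGB8, -0.50 to 0.52 for ITGBL1, -0.25 to 0.029 for LAMA2 and -1.22 to 4.75 for ORC1. Depth limits the 31 genes with at most 21 counts, which the count filter left untested with all 4 libraries.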
